A study of Mus musculus with 6 samples.

Results

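Transcript levels of 33 genes of the cell division cycle and of DNA replication were examined in primary mammary tumours that did or did not carry an enforced Bmp4 transgene. The members are 12 genes transcribed at the G1/S transition or in S phase, 18 genes of G2 and mitosis, the G1 cyclin Ccnd1 and the cyclin-dependent kinase (CDK) inhibitors Cdkn1a and Cdkn2b, taken by symbol out of 20401 genes on the array. Each gene was read from the probe set with a unique gene symbol and the highest mean log2 level over all arrays, and all 33 were found (Cdk1 under its older symbol Cdc2a).

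The Bmp4 tumours grew from 4T1.2 cells, a metastatic line of the mouse mammary carcinoma 4T1, that carried the retroviral vector pBabepuro with murine Bmp4 (n = 3). The others grew from 4T1.2 cells with the empty pBabepuro vector (control tumours, n = 3). All hosts were female Balb/c mice of 6 to 8 weeks; 100000 cells were placed in the mammary fat pad, and whole tumours of about 0.3 g were taken, so cancer cells and host cells were measured together. The sources used here do not say whether the cells of a group were a pool or 1 clone, nor whether each mouse gave 1 tumour. The p-values therefore cover no more than tumour-to-tumour spread. In whole tumours, fewer dividing cells and less RNA per dividing cell cannot be told apart.

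A dividing cell passes through G1, S phase, G2 and mitosis, driven by CDKs that are switched on by cyclins and held back by CDK inhibitors. E2F factors turn on cyclin E, the MCM helicase and the enzymes of deoxynucleotide supply before S phase, and a later wave that depends on B-MYB and FOXM1 supplies the cyclins, kinases and motors of mitosis. BMP4 and TGF-beta are ligands of 1 superfamily, and in many epithelial cells TGF-beta is known to arrest growth through Cdkn2b and Cdkn1a, which is why the inhibitors are set beside the proliferation genes. The comparison asks whether tumours taken at about the same size differ in these transcripts when BMP4 is enforced.

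The members' promoters, which played no part in how they were chosen, are described by class, and 7, chosen after the values were seen, are shown because the mitotic members varied together among the tumours, as described below. RefSeq promoter windows of GRCm38.p6, 250 bases before to 50 bases after a start, were matched for 26 of the 33 members; Ccne2, Mcm4, Ccna2, Foxm1, Aurkb, Kif20a and Ccnd1 were not matched. Searched on both strands were the E2F motif (TTTCCCGC, TTTCGCGC, TTTGCCGC or TTTGGCGC), the cell cycle genes homology region or CHR (TTTGAA or TTCGAA) and CCAAT, the box bound by NF-Y. A CHR was present in 12 of 14 mitotic members and 1 of 10 S phase members, against 21.7% of all 27025 genes with a window (in any window of the gene). At least 2 CCAAT boxes were present in 10 of 14 mitotic members and 3 of 10 S phase members, against 13.3% of all genes. The E2F motif was present in 3 of 10 S phase members, Mcm3, Mcm5 and Mcm6, and in 1 of 14 mitotic members, Cdk1, against 2.6% of all genes. Of related genes that are not members, 20 of 30 other mitotic genes held a CHR and 0 held the E2F motif, and 12 of 30 other replication genes held the E2F motif and 6 held a CHR. Below, the 120 bases before the start are given 5′ to 3′ for 5 mitotic members and then 2 S phase members, with matches in capitals. In Mcm6 the first 2 E2F matches, on opposite strands, overlap. Pcna is shown because it had the largest difference of the 33, and its stretch holds a CCAAT match alone.
Cdc20 (chr4:118437344-118437463, minus strand): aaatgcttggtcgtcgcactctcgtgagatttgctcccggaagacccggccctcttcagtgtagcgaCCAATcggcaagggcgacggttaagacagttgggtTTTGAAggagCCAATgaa
Ube2c (chr2:164769809-164769928, plus strand): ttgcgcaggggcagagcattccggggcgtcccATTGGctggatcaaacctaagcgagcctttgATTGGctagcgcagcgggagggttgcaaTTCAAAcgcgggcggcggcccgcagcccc
Kif11 (chr19:37376262-37376381, plus strand): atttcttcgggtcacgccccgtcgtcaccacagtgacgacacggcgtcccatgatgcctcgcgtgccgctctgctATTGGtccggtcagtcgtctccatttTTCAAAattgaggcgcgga
Top2a (chr11:99024190-99024309, minus strand): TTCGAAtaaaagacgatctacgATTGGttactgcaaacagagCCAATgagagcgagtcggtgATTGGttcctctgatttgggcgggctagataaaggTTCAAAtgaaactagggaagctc
Cdk1 (chr10:69352913-69353032, minus strand): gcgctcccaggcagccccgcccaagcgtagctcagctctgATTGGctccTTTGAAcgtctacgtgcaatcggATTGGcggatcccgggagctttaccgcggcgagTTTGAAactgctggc
Mcm6 (chr1:128359706-128359825, minus strand): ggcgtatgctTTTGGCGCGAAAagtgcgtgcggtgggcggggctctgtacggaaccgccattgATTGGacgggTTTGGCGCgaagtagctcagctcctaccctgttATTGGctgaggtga
Pcna (chr2:132253181-132253300, minus strand): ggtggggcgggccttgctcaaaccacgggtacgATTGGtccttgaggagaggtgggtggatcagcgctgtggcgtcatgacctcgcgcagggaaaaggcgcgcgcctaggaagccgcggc

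One array stood apart before any comparison. Over all probe sets, the array of control tumour 1 had Pearson correlations of 0.655 to 0.719 with the rest, which reached 0.959 to 0.993 among themselves. The interquartile range of that array was 2.25 (log2), against 3.36 to 3.77 on the other arrays. On that array 69.2% of the 10201 genes at or above the median of mean signal had their lowest value. A low level there is therefore not particular to cell division. Of all genes, 47.7% had their highest value there. The mean log2 signal of the array's hybridization control probe sets also set the groups apart. It was 10.04, 10.04 and 10.30 in Bmp4 tumours 1 to 3 and 13.01, 11.23 and 10.66 in control tumours 1 to 3. The part of this signal in the results below was not tested. For Actb, the 3′ minus 5′ signal (log2), which is higher in broken RNA, was 1.44, 2.32 and 2.33 in Bmp4 tumours 1 to 3 and 5.64, 4.18 and 2.62 in control tumours 1 to 3, and that of Gapdh was 1.62, 3.13 and 2.42 in Bmp4 tumours and 2.46, 5.31 and 3.93 in control tumours. The keratins Krt8 and Krt18, which mark simple epithelium, were bright in every tumour (11.80 to 13.03 in Bmp4 tumours and 9.82 to 13.02 in control tumours), while Krt14, a basal keratin, and the epithelial splicing factor Esrp1 were dim (3.91 to 6.21 in Bmp4 tumours and 3.83 to 5.69 in control tumours). Of all 11 epithelial markers 0 passed limma's threshold, 5 had a positive difference in either setting, and Epcam (-0.51, then -0.37) and Cldn3 (-0.74, then -0.26) lay under all controls in every Bmp4 tumour in both. Cdh1, E-cadherin, joined them without control tumour 1, at -0.29 and then -1.25 (limma adjusted p = 0.194), and Krt7 differed by -0.91 and then by -0.71. All Bmp4 tumours lay under all controls for 13.6% of all genes with all 6 tumours and for 18.3% without control tumour 1. The part of the epithelial markers in the results below was not tested. Group differences below are given with all 6 tumours and, after that, without control tumour 1.

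Of the 33 cell cycle members, 0 were higher and 0 lower in Bmp4 tumours by limma at an adjusted p under 0.05, where 0% of all 20401 genes were called. Their smallest adjusted p was 0.496, and 0 had an unadjusted p under 0.05, against 3.74% of all genes higher and 1.16% lower. Without control tumour 1 again 0 members were called, where 0.0196% of all genes were, and at an unadjusted limma p under 0.05 there were 2 higher members (Pcna and Ccnd1) and 1 lower (Mcm4), against 9.07% and 5.67% of all genes. All Bmp4 tumours exceeded all control tumours for 3 of 33 members, Pcna, Ccnd1 and Cdkn1a, where 12.9% of all genes behaved so, and all fell short of them for 0 members, where 13.6% did. Without control tumour 1 the same 3 lay above (15.9% of all genes) and 2, Mcm4 and Rrm2, lay below (18.3% of all genes). These shares are near or under those of all genes.

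**Figure D1:**
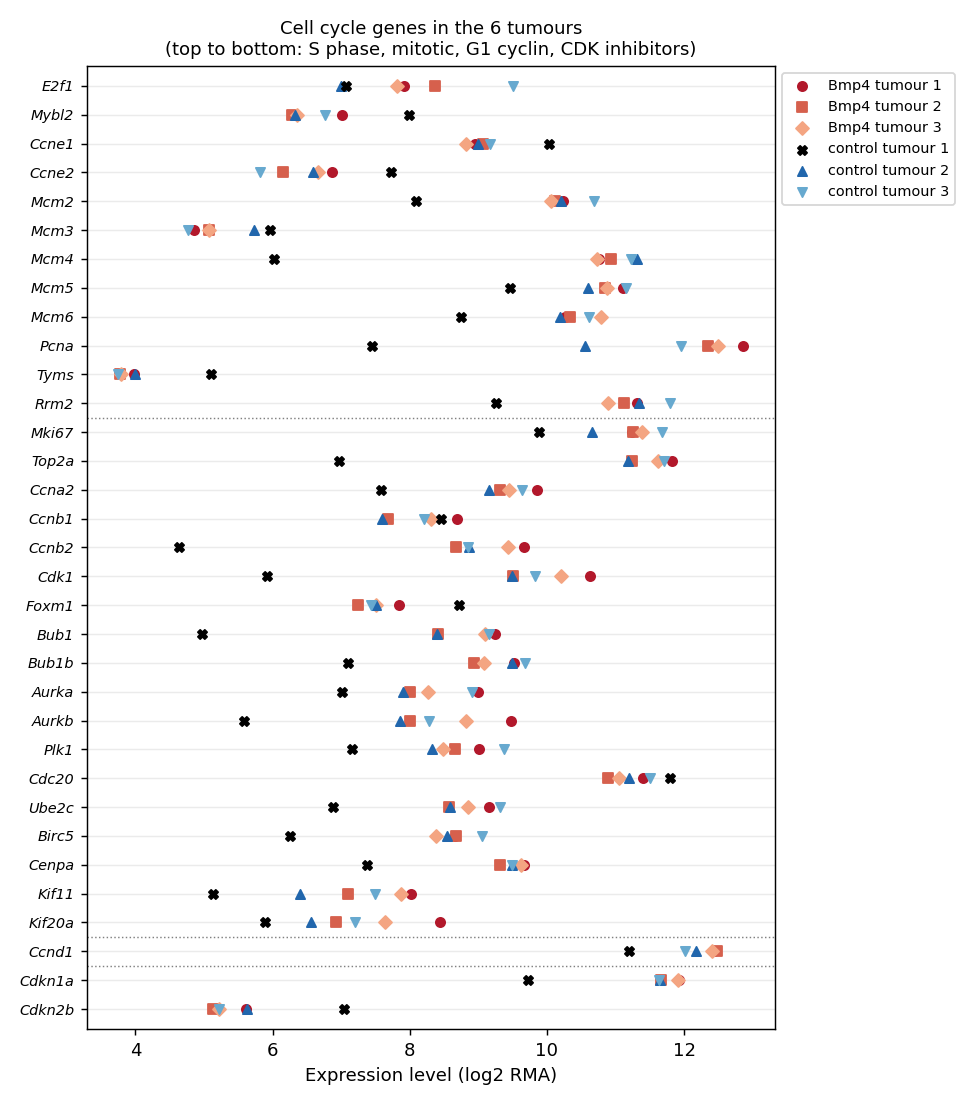
Log2 expression level (horizontal axis) of the 33 members, 1 row a gene, in the 6 tumours; red symbols are Bmp4 tumours, the black cross is control tumour 1 and blue symbols are control tumours 2 and 3. Control tumour 1 is the lowest of the 6 for 23 genes, and the other 5 tumours lie close together for most.

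The 18 mitotic members had a median difference of 0.68 (log2, Bmp4 minus control) with all 6 tumours, 16 of them positive, beside a median of -0.12 over all genes and of 0.57 over the genes at or above the median of mean signal. Without control tumour 1 their median was 0.12 with 13 positive, beside -0.04 over all genes and 0.10 over the brighter ones. Without control tumours 1 and 2, which leaves control tumour 3 as the sole control, it was -0.12 with 8 positive. The size of the difference thus moved with the control tumours that were kept, and its sign as well.

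The kinase at the centre of mitotic entry and its cyclins show this. Cdk1 had log2 levels of 10.63, 9.50 and 10.20 in Bmp4 tumours 1 to 3 and 5.92, 9.50 and 9.82 in control tumours 1 to 3, which differ by 1.70 ± 1.05 (SE; limma adjusted p = 0.496), or by 0.45 ± 0.33 (SE) once control tumour 1 is omitted. Ccnb2, a B-type cyclin that activates it, had 9.67, 8.68 and 9.44 in Bmp4 tumours and 4.64, 8.86 and 8.84 in control tumours, a difference of 1.81 and then 0.41. Ccnb1, the main mitotic cyclin, had 8.69, 7.68 and 8.31 in Bmp4 tumours and 8.45, 7.59 and 8.20 in control tumours, a difference of 0.15 and then 0.33. For all 3 genes the groups overlapped with and without control tumour 1. For Cdk1 and Ccnb2, control tumour 1 lay more than 4 log2 units under the mean of the other tumours, at -4.01 and -4.46, whereas for Ccnb1 it lay 0.36 above. Ccna2, the cyclin of S phase and G2, differed by 0.75 and then by 0.14, and Foxm1, the transcription factor of the mitotic wave, by -0.36 and then by 0.05. Foxm1 1448834_at gave 0.30 and then -0.24, and Foxm1 1417748_x_at gave -0.14 and then 0.02. The dimmer Ccnb1 1419944_at gave -0.75 and then -0.11. The signs of Foxm1 and Ccnb1 thus rested on the probe set.

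Among markers of proliferating cells, Mki67, which encodes the Ki-67 antigen, had 11.24, 11.25 and 11.38 in Bmp4 tumours 1 to 3 and 9.89, 10.66 and 11.67 in control tumours 1 to 3. The highest and the 2 lowest of the 6 values were control tumours, so the groups overlapped. The difference of 0.55 ± 0.47 (SE; limma adjusted p = 0.500) became 0.13 on omission of control tumour 1, with a 95% interval of -0.58 to 0.83. Top2a, the topoisomerase that untangles sister chromatids, had 11.83, 11.25 and 11.62 in Bmp4 tumours and 6.97, 11.19 and 11.70 in control tumours, a difference of 1.61 ± 1.22 (SE) and then of 0.12 ± 0.24 (SE). Control tumour 1 alone was low.

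Of the genes of the spindle checkpoint and the anaphase-promoting complex, Bub1 and Bub1b, checkpoint kinases, differed by 1.41 and 0.43, and by 0.14 and -0.40 without control tumour 1. The other Bub1 probe set gave -0.05 and then -0.24. The other Bub1b probe sets gave 0.54 and -0.44, and then 0.17 and -0.08, so the signs of both genes rested on the probe set. Cdc20, which activates the complex and was the only mitotic member other than Foxm1 with a negative difference over all 6 tumours, had 11.40, 10.89 and 11.06 in Bmp4 tumours 1 to 3 and 11.80, 11.19 and 11.51 in control tumours 1 to 3. The groups overlapped through Bmp4 tumour 1 and control tumour 2, and the difference was -0.38 ± 0.29 (SE), then -0.23. Its other probe sets gave 0.88 and 0.12 with all 6 tumours, and then 0.25 and -0.09, so the sign over all 6 tumours rested on the probe set. Ube2c, the conjugating enzyme of the complex, differed by 0.60 and then by -0.09.

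Without control tumour 1 the largest differences of the mitotic members were in kinases and motors. Kif20a, a kinesin of cytokinesis, had 8.43, 6.92 and 7.64 in Bmp4 tumours 1 to 3 and 5.89, 6.56 and 7.21 in control tumours 1 to 3, which differ by 1.11 ± 0.51 (SE; limma adjusted p = 0.496), or by 0.78 with a 95% interval of -0.27 to 1.83 once control tumour 1 is omitted. Bmp4 tumour 2 lay under control tumour 3, so the groups overlapped. Kif11, the motor that separates the spindle poles, differed by 1.32 and then by 0.72. Its probe set 1452314_at gave 1.08 and then 0.63. Kif11 1452315_at gave -1.07 and then -0.32, with all Bmp4 tumours under all controls in both settings, so the sign rested on the probe set. Aurkb, the kinase of the chromosomal passenger complex, differed by 1.52 and then by 0.69. Birc5, survivin, a partner of Aurkb in that complex, differed by 0.62 and then by -0.23, so members of 1 complex had opposite signs without control tumour 1, each with a 95% interval that held 0. Aurka and Plk1, kinases of centrosome maturation, differed by 0.48 and 0.43, and then by 0.01 and -0.13. Cenpa, the histone H3 variant of centromeres, differed by 0.74 and then by 0.04.

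The mitotic members ran in a common order within each group, a description chosen after the values were seen. Bmp4 tumour 1 was the highest Bmp4 tumour for 16 of 18 mitotic members, where it was for 37.3% of all genes, and Bmp4 tumour 2 was the lowest for 15 of 18, against 37.9% of all genes. Control tumour 3 lay above control tumour 2 for 16 of 18, against 44.8% of all genes. Over the genes at or above the median of mean signal, these shares were 40.9%, 46.1% and 56.2%. The median of Bmp4 tumour 1 minus Bmp4 tumour 2 was 0.59 and that of control tumour 3 minus control tumour 2 was 0.51. The median group difference without control tumour 1 was 0.12. Gaps between single tumours picked for their order can exceed a difference of means in equal groups, so these sizes are not compared. For 13 of the 18 the group difference without control tumour 1 was smaller than the SD of the 3 Bmp4 tumours. The same held for 7523 of all 20401 genes. The 35 measured other mitotic genes ran alike, with Bmp4 tumour 1 highest for 26, Bmp4 tumour 2 lowest for 25 and control tumour 3 over control tumour 2 for 32. The Gapdh 3′ minus 5′ signal ran in the reverse order within both groups, leaving control tumour 1 aside, and the Actb signal was lowest in Bmp4 tumour 1 and lower in control tumour 3 than in control tumour 2. Macrophage markers also ran with it in part: their mean log2 level was 11.38, 10.78 and 10.44 in Bmp4 tumours 1 to 3 and 8.47, 8.55 and 10.60 in control tumours 1 to 3, with Bmp4 tumour 1 highest for 8 of 8 markers. Their part in the order was not tested.

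**Figure D2:**
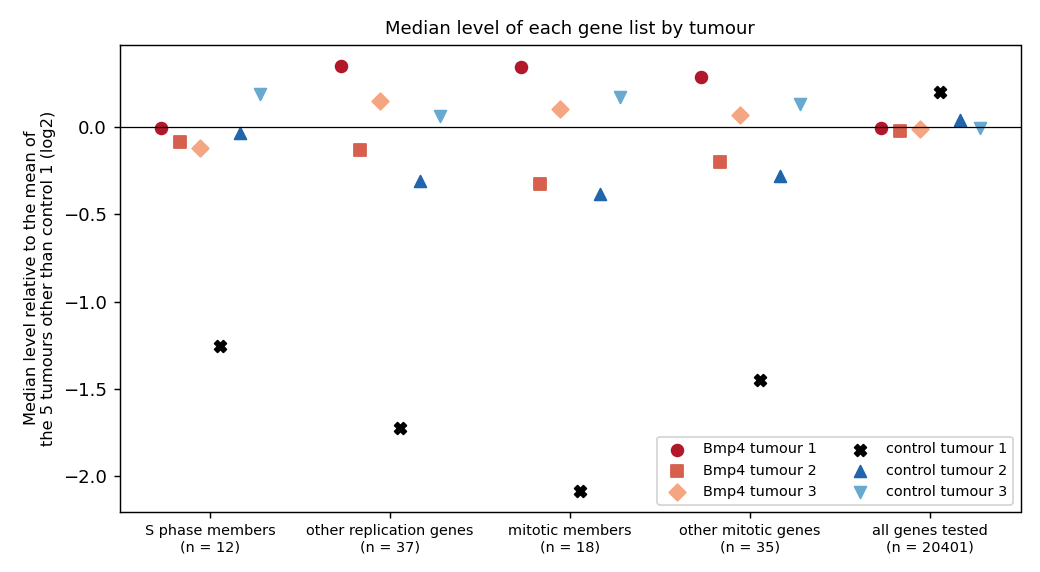
Median over each gene list of the log2 level relative to the gene's mean in the 5 tumours other than control tumour 1 (vertical axis), with 1 symbol a tumour. In the mitotic members Bmp4 tumour 1 (0.35) and control tumour 3 (0.17) are high and Bmp4 tumour 2 (-0.32) and control tumour 2 (-0.38) are low, while control tumour 1 lies at -2.08; over all genes the symbols lie between -0.02 and 0.20.

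The 12 S phase members had a median difference of 0.25 with all 6 tumours, 7 of them positive, and of -0.08 without control tumour 1, 5 of them positive. Without control tumours 1 and 2 it was -0.21 with 4 positive. The genes at or above the median of mean signal had medians of 0.57, 0.10 and 0.04 in the same settings. Relative to the mean of the other 5 tumours, the median of the S phase members in control tumour 1 was -1.25, against -2.08 for the mitotic members. Over the genes at or above the median of mean signal it was -1.34. This tumour was the lowest of the 6 for 6 of 12 S phase and 15 of 18 mitotic members, beside 69.2% of brighter genes. It was the highest for 5 of 12 and 2 of 18. The part of signal level in this was not tested. In the within-group order, Bmp4 tumour 1 was highest for 7 of 12 and control tumour 3 lay above control tumour 2 for 8 of 12. Whether the classes differ in this was not tested. In the 37 measured other replication genes, Bmp4 tumour 1 was highest for 26 and control tumour 3 lay above control tumour 2 for 31, beside 16 of 18 mitotic members for both.

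Pcna, the sliding clamp of the replication fork, had the largest difference of the 33. Its log2 levels were 12.86, 12.35 and 12.49 in Bmp4 tumours 1 to 3 and 7.45, 10.55 and 11.95 in control tumours 1 to 3, so all Bmp4 tumours exceeded all controls, with 0.39 between the nearest of them. The difference was 2.58 ± 1.09 (SE; limma adjusted p = 0.496). Omission of control tumour 1 gave 1.32 ± 0.40 (SE; adjusted p = 0.277), with a 95% interval, not adjusted for the number of genes, of 0.35 to 2.29. Without control tumours 1 and 2 it was 0.61. It passed the threshold only where arrays were weighted: at an adjusted p of 8.9e-05 with limma's default weights, whose estimate did not converge and which called 11307 genes and 17 of the 33 members, and at 0.0295 with gene-by-gene weights, chosen after the data were seen, which called 1400 genes and gave control tumour 1 a weight of 0.034. The control tumours ran in the order of their Actb 3′ minus 5′ signal and of their hybridization control signal, highest signal with lowest Pcna. The part of either signal was not tested. In the authors' deposited table the ratio of Pcna, Bmp4 over control, is 2.15 (log2 1.11) with the table's own adjusted p of 0.523. The sources used here do not state which arrays entered it.

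The subunits of the MCM helicase, which unwinds the origin, had smaller differences on their chosen probe sets. Mcm4 had 10.76, 10.94 and 10.72 in Bmp4 tumours 1 to 3 and 6.03, 11.32 and 11.23 in control tumours 1 to 3, a difference of 1.28 with all tumours and of -0.47 ± 0.15 (SE; limma adjusted p = 0.280) without control tumour 1, where both remaining controls lay above all Bmp4 tumours. Mcm2 differed by 0.48 and then by -0.30, and Mcm5 and Mcm6 by 0.54 and 0.61 and then by 0.06 each. Without control tumour 1 the 95% intervals of these chosen probe sets of Mcm2, Mcm5 and Mcm6 lay between -0.75 and 0.59. The other Mcm2 probe set, 1448777_at, gave 1.38 and then 0.11, so the negative sign rested on the probe set. Other probe sets of Mcm4, Mcm5 and Mcm6 are given below. Mcm3 was dim, at 4.86 to 5.08 in Bmp4 tumours and 4.76 to 5.96 in control tumours, and differed by -0.48 and then by -0.24.

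Rrm2, the small subunit of ribonucleotide reductase, had 11.31, 11.13 and 10.89 in Bmp4 tumours 1 to 3 and 9.25, 11.34 and 11.79 in control tumours 1 to 3. Its difference was 0.32 ± 0.67 (SE), and -0.45 ± 0.21 (SE; limma adjusted p = 0.360) without control tumour 1, where all Bmp4 tumours lay under both controls, Bmp4 tumour 1 by the least. The other Rrm2 probe sets gave 1.66 and 0.95, and then 0.12 and 0.85, so the negative sign rested on the probe set. Tyms, thymidylate synthase, lay under the array's 25th percentile in 5 of 6 tumours (3.77 to 3.97 in Bmp4 tumours and 3.75 to 5.11 in control tumours), so its difference carries no size.

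The regulators of S phase entry had small differences beside their spread. E2f1, the founding E2F factor, had 7.92, 8.37 and 7.81 in Bmp4 tumours 1 to 3 and 7.06, 6.99 and 9.50 in control tumours 1 to 3, with a difference of 0.18 ± 0.70 (SE), and of -0.21 ± 0.67 (SE) without control tumour 1. Control tumour 3 was the highest of the 6, and with it as the sole control the difference was -1.47. Ccne1 and Ccne2, the cyclins that open S phase with CDK2, differed by -0.45 and -0.15, and then by -0.13 and 0.35, and Mybl2, which encodes B-MYB, by -0.48 and then by 0.01. On the chosen probe sets of these 3 genes control tumour 1 was the highest of the 6 tumours, 1.03 to 1.45 above the mean of the others. It was the highest for 47.7% of all genes and for 15.8% of those at or above the median of mean signal. The other Ccne1 probe set, 1416492_at, gave 0.21 and then 0.07, with control tumour 1 the lowest of the 6 at 6.54. The other Mybl2 probe set, 1454946_at, gave 0.20 and then 0.37, with control tumour 1 at 5.40 under Bmp4 tumour 1 at 5.68. The sign of Ccne1, and that of Mybl2 over all 6 tumours, thus rested on the probe set. 

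**Figure D3:**
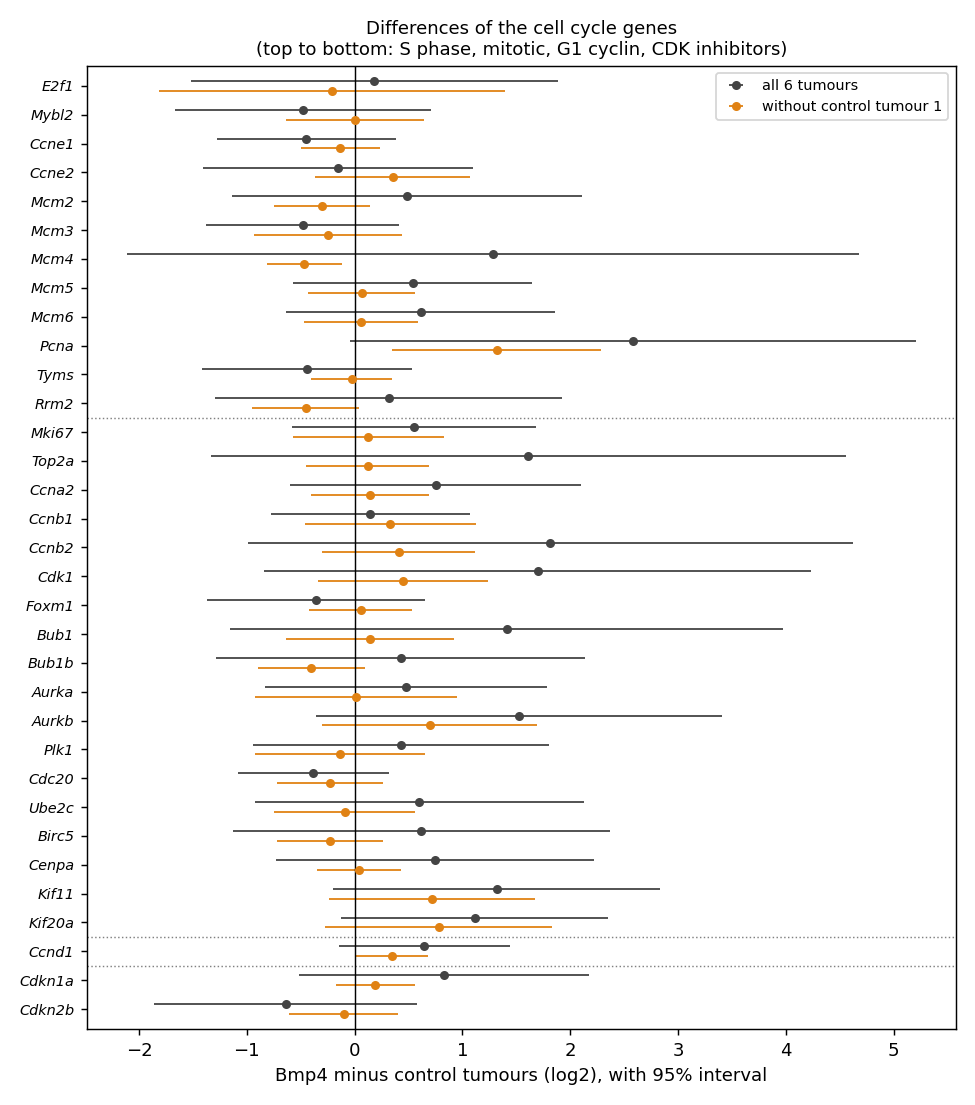
Difference of Bmp4 minus control tumours (log2, horizontal axis) for each member, with the 95% interval of limma, in grey with all 6 tumours and in orange without control tumour 1. All 33 grey intervals hold 0; of the orange ones 30 do, and Pcna, Ccnd1 and Mcm4 lie off 0 before adjustment.

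Ccnd1, the cyclin that couples growth signals to G1 progression, had 12.44, 12.47 and 12.40 in Bmp4 tumours 1 to 3 and 11.19, 12.18 and 12.01 in control tumours 1 to 3. The Bmp4 tumours were tightly grouped and lay above every control tumour. The difference was 0.65 ± 0.33 (SE; limma adjusted p = 0.496), or 0.35 ± 0.14 (SE; adjusted p = 0.329) once control tumour 1 is omitted, and the other probe sets of Ccnd1 differed by 0.92 and 0.42, and then by 0.70 and 0.62. Ccnd1 was lower in control tumour 3 than in control tumour 2, and Bmp4 tumour 1 was not the highest.

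Of the inhibitors, Cdkn1a (p21), which blocks CDK2 complexes and binds PCNA, had 11.92, 11.66 and 11.92 in Bmp4 tumours 1 to 3 and 9.72, 11.64 and 11.64 in control tumours 1 to 3. The groups did not overlap, but Bmp4 tumour 2 exceeded the nearest controls by under 0.05, and the difference of 0.83 ± 0.56 (SE; limma adjusted p = 0.496) became 0.19 ± 0.15 (SE; adjusted p = 0.553) without control tumour 1. The other Cdkn1a probe set, 1421679_a_at, gave 11.34, 10.61 and 10.81 in Bmp4 tumours and 7.81, 8.42 and 10.45 in control tumours, a difference of 2.03 and then of 1.49, with no overlap between the groups. Cdkn2b (p15), which blocks CDK4 and CDK6, had 5.61, 5.13 and 5.22 in Bmp4 tumours and 7.03, 5.62 and 5.22 in control tumours, a difference of -0.64 ± 0.50 (SE) and then of -0.10 with a 95% interval of -0.61 to 0.40.

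How precisely equality or difference could be read depended on control tumour 1. The median half-width of the members' 95% intervals was 1.35 log2 units with all 6 tumours and 0.57 without control tumour 1. Intervals lay wholly within 1 log2 unit of 0, a 2-fold change, for 0 of 33 members with all 6 tumours, where they did for 21.0% of all genes, and for 24 of 33 without control tumour 1, where they did for 79.4%. A missed threshold does not show equal levels.

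Different probe sets of 1 gene disagreed for most members with several. Of the 33 members, 23 had several probe sets, 37 besides the chosen ones. Of these, 28 had the opposite sign or lay over 1 log2 unit from the chosen one in at least 1 of the 2 settings. An opposite sign was counted at any size. Among the 28 are probe sets of Aurka, Cenpa, Foxm1 and Mcm6 that lay under the array's 25th percentile on all 6 arrays. Mcm5 1415945_at had 9.19, 8.10 and 8.41 in Bmp4 tumours 1 to 3 and 4.65, 6.18 and 8.08 in control tumours 1 to 3, a difference of 2.27 and then of 1.44, where the brighter 1436808_x_at gave 0.54 and 0.06. For Mcm6, 1416251_at gave 1.89 and 0.73 against 0.61 and 0.06 from the brighter one, and for Mcm4, 1416214_at gave 2.05 and 0.53 against 1.28 and -0.47, so the sign of Mcm4 without control tumour 1 rested on the probe set. Top2a 1442454_at went the other way, with 6.16, 6.70 and 6.03 in Bmp4 tumours and 7.74, 7.33 and 7.46 in control tumours, a difference of -1.21 and then of -1.10 and no overlap between the groups. For Mcm5 1415945_at and Mcm6 1416251_at all Bmp4 tumours lay above all controls in both settings. For Mcm5 1459658_at they lay below, at -0.31 and then -0.25. By chosen probe sets, 12.9% of all genes lay above and 13.6% below with all 6 tumours. Without control tumour 1 these shares were 15.9% and 18.3%. Over all 70 probe sets of the members, limma adjusted over all probe sets called 0 in either setting. The sources used here do not give which part of a transcript each probe set reads. The Actb 3′ minus 5′ signal did not overlap between the groups, and its part in these disagreements was not tested.

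**Figure D4:**
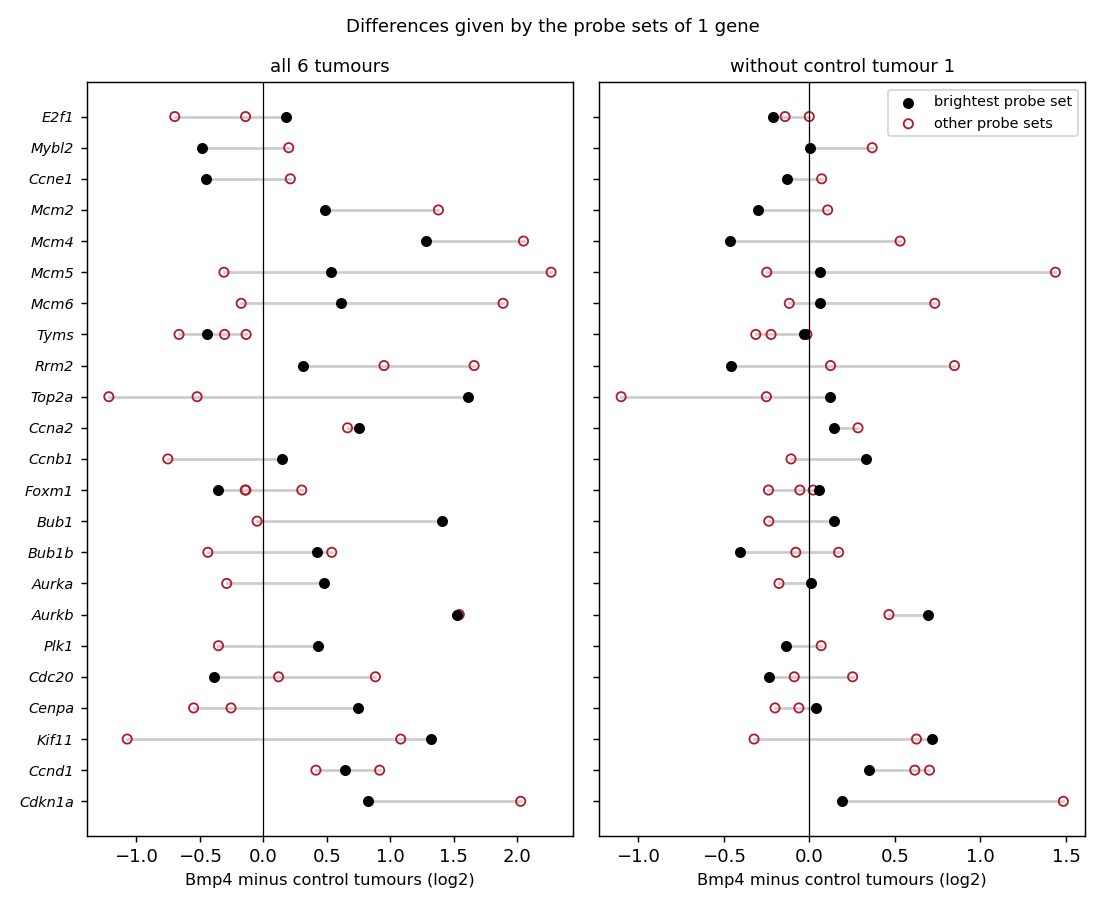
Difference of Bmp4 minus control tumours (log2, horizontal axis) for every probe set of the 23 members that have several, with all 6 tumours (left) and without control tumour 1 (right); filled points are the brightest probe sets, which represent the genes in the text, and open points the others. Mcm5 spans -0.31 to 2.27 on the left and -0.25 to 1.44 on the right.

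Further genes of the pathway were taken from lists and 0 passed limma's threshold over all genes in either direction, with or without control tumour 1. The 37 other replication genes had a median difference of 0.93 (33 positive), and of 0.29 (29 positive) without control tumour 1. Their smallest p belonged to Pola1, the catalytic subunit of DNA polymerase alpha, with 8.14, 7.63 and 7.82 in Bmp4 tumours 1 to 3 and 5.96, 6.47 and 7.54 in control tumours 1 to 3, a difference of 1.2 and then of 0.86, and to Rfc3, a subunit of the clamp loader that places PCNA on DNA, with 0.69 and then 0.65. In both, all Bmp4 tumours exceeded all controls, as in 7 of the 37 genes with all 6 tumours (12.9% of all genes) and 7 without control tumour 1 (15.9%). Tk1, thymidine kinase, and Rrm1, the large subunit of ribonucleotide reductase, differed by 1.36 and 1.15, and then by 0.93 and 0.77, with overlap.

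The 35 other mitotic genes had a median of 0.60 (29 positive), and of 0.07 (22 positive) without control tumour 1. Genes at or above the median of mean signal had 0.57 and then 0.10. Ndc80 and Nuf2, which form the outer kinetochore together, differed by 1.27 and 1.54, and then by 0.98 and 0.71. Pttg1, securin, had 12.48, 12.71 and 12.39 in Bmp4 tumours 1 to 3 and 13.33, 12.88 and 12.94 in control tumours 1 to 3, a difference of -0.52 and then of -0.38, and Incenp, the scaffold of the chromosomal passenger complex, differed by -0.60 in both settings. In Pttg1 and Incenp all Bmp4 tumours lay under all controls, as in 3 of the 35 genes with all 6 tumours (13.6% of all genes) and 5 without control tumour 1 (18.3%).

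Among 19 measured G1/S regulators, the median was 0.59 and then 0.18, beside 0.57 and then 0.10 over the genes at or above the median of mean signal. All Bmp4 tumours lay above all controls for 5 of the 19 in both settings (12.9% and then 15.9% of all genes) and below them for 1 and then 4 (13.6% and then 18.3%). E2f6, a repressing E2F, Cdk2 and Wee1, the kinase that restrains CDK1, differed by 1.07, 1.0 and 0.92, and then by 0.67, 0.53 and 0.47, and Tfdp2, an E2F partner, by -1.09 and then by -0.44, all 4 with no overlap between the groups. Of 5 other CDK inhibitors, Cdkn2c (p18), which binds CDK4 and CDK6, had 11.30, 11.14 and 11.12 in Bmp4 tumours 1 to 3 and 9.0, 10.55 and 10.71 in control tumours 1 to 3, a difference of 1.10 ± 0.49 (SE) and then of 0.55 ± 0.15 (SE; limma adjusted p = 0.248), again with no overlap. Cdkn1b (p27) differed by 0.88 and then by -0.25, and Cdkn3 by 0.33 and then by 0.40. T cell markers, which come from host cells that can divide in a tumour, averaged 8.45, 8.39 and 8.49 in Bmp4 tumours 1 to 3 and 6.77, 6.52 and 7.65 in control tumours 1 to 3; their summed linear level was 3178 to 3490 in Bmp4 tumours and 898 to 1866 in control tumours, 6 of 8 lay above all controls in every Bmp4 tumour with all 6 tumours (12.9% of all genes) and 6 without control tumour 1 (15.9%), and their part in the pathway's differences was not tested.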

How the data were processed

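RNA of 6 whole tumours was measured on Affymetrix arrays after biotin labelling, per the labels' protocols. The authors deposited log2 expression values, and RMA and Partek 6.6 are named in the submitters' processing notes. The authors' deposited table adds a ratio, an F score and p-values for each probe set, per the file headers. Of 45101 probe sets, 36859 carried a single symbol there. Symbols were updated through RefSeq (GRCm38.p6), and each of 20401 genes was read from its brightest probe set over all arrays. limma 3.58.1 in R 4.3.3 (lmFit, eBayes, two-sided) compared Bmp4 minus control tumours, with Benjamini-Hochberg adjustment over all genes. The precision is limited by the number of arrays: an exact permutation test of 3 tumours against 3 has a smallest p of 0.1, so limma's pooled spread was used. Scripts were tested on simulated data. Members and lists were chosen with earlier results of these data known. Named were all members, up to 4 genes a list with the smallest p, and probe sets that disagreed with the chosen one, not all of which are reported. Same-numbered tumours deviated from their group means with r = -0.14, -0.25 and -0.04, so the numbers were not used as pairs. Alternatives were other scalings, filters on mean signal (25th or 50th percentile), averaged probe sets, other variance settings, array weights (by limma's default and, added after the data were seen, gene by gene), tumour number as a block, the authors' values and omitted tumours.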

Additional observations from a re-analysis of the deposited data

How the results depend on the processing

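The number of members past the threshold was 0 under all alternatives other than array weights. limma's default estimate of the weights stopped before it converged and gave control tumour 2 a weight of 44.84 and control tumour 1 one of 0.027. It called 11307 of all genes and 17 members, Pcna at an adjusted p of 8.9e-05 and Mcm4 lower in Bmp4 tumours. Gene-by-gene weights, an alternative chosen after the data and that failure had been seen, called 1400 genes and 1 member, Pcna. Over all genes, the count without control tumour 1 was 6 after quantile normalization again and 7 with trend and robust options, and with single tumours omitted it ran from 0 to 4 (4 without control tumour 1). The S phase median ran from -0.081 without control tumour 1 to 0.86 without control tumour 3, the mitotic median from 0.12 to 1.15 and the median of all members from 0.05 to 1.0. On all 6 arrays the S phase median was also negative after quantile normalization again (-0.13), with 75th percentile centring (-0.05) and with the default array weights (-0.03), and it was -0.04 in the authors' deposited table. The mitotic median was 0.28, 0.38, 0.43 and 0.19 in the same 4 alternatives, and -0.007 after quantile normalization without control tumour 1. Tumour number as a replicate block called 0 members. On all 6 arrays it left the medians at 0.25 for S phase and 0.68 for mitotic members, since a block cannot alter a difference in a balanced layout. Without control tumour 1 the block gave medians of -0.14 and -0.01. Of 33 members, 24 had a difference of opposite sign under at least 1 of 21 alternatives, and 9 under none. On all 6 arrays the filters, the trend and robust options and the block cannot alter a member's difference, so no sign could change there. Without control tumour 1 the trend and robust options repeat the differences of that omission alone. The causes were not tested. The values of opposite sign are given by alternative. After quantile normalization again, they were -0.15 for E2f1, -0.082 for Mcm2, -0.056 for Mcm5, -0.28 for Rrm2, -0.027 for Mki67 and -0.48 for Ccnb1. With arrays centred on their median, it was 0.030 for Ccne2. With arrays centred on their 75th percentile, they were -0.12 for E2f1 and -0.15 for Ccnb1. With a gene's probe sets averaged, they were -0.22 for E2f1, -0.040 for Top2a, -0.30 for Ccnb1, 0.21 for Cdc20 and -0.018 for Cenpa. With the default array weights, they were 0.21 for Mybl2, 0.0041 for Ccne2, -0.066 for Mcm2, -0.52 for Mcm4, -0.25 for Rrm2, 0.031 for Foxm1, -0.30 for Bub1b and -0.0020 for Birc5. With gene-by-gene weights, they were 0.12 for Mybl2, 0.13 for Ccne2, -0.13 for Mcm2, -0.46 for Mcm4, -0.31 for Rrm2, 0.033 for Foxm1, -0.32 for Bub1b and -0.073 for Birc5. On 5 arrays quantile normalized again without control tumour 1, they were -0.35 for E2f1, 0.31 for Ccne2, -0.40 for Mcm2, -0.53 for Mcm4, -0.018 for Mcm5, -0.040 for Mcm6, 0.076 for Tyms, -0.52 for Rrm2, -0.015 for Bub1, -0.53 for Bub1b, -0.15 for Aurka, -0.29 for Plk1, -0.25 for Ube2c, -0.39 for Birc5 and -0.10 for Cenpa. With trend and robust options and no control tumour 1, they were -0.21 for E2f1, 0.0059 for Mybl2, 0.35 for Ccne2, -0.30 for Mcm2, -0.47 for Mcm4, -0.45 for Rrm2, 0.055 for Foxm1, -0.40 for Bub1b, -0.13 for Plk1, -0.093 for Ube2c and -0.23 for Birc5. With the replicate block and no control tumour 1, they were -0.15 for E2f1, 0.20 for Ccne2, -0.35 for Mcm2, -0.44 for Mcm4, -0.018 for Mcm5, -0.55 for Rrm2, -0.010 for Top2a, -0.011 for Ccna2, -0.019 for Bub1, -0.57 for Bub1b, -0.27 for Aurka, -0.28 for Plk1, -0.24 for Ube2c, -0.27 for Birc5 and -0.026 for Cenpa. Without control tumours 1 and 2, they were -1.47 for E2f1, 0.73 for Ccne2, -0.54 for Mcm2, 0.24 for Mcm3, -0.42 for Mcm4, -0.21 for Mcm5, -0.15 for Mcm6, 0.094 for Tyms, -0.68 for Rrm2, -0.38 for Mki67, -0.14 for Top2a, -0.10 for Ccna2, 0.092 for Foxm1, -0.23 for Bub1, -0.50 for Bub1b, -0.49 for Aurka, -0.66 for Plk1, -0.46 for Ube2c, -0.48 for Birc5 and 0.10 for Cdkn2b. In the authors' deposited table (log2 of the ratio), they were -0.26 for E2f1, 0.014 for Mybl2, 0.44 for Ccne2, -0.33 for Mcm2, -0.14 for Mcm4, -0.46 for Rrm2, 0.089 for Foxm1, -0.34 for Bub1b, -0.19 for Ube2c and -0.36 for Birc5. Over omissions of 1 tumour, differences that took both signs ran from -0.25 to 1.0 for E2f1, -0.83 to 0.0059 for Mybl2, -0.60 to 0.35 for Ccne2, -0.30 to 1.0 for Mcm2, -0.47 to 2.18 for Mcm4, -0.45 to 0.82 for Rrm2, -0.10 to 0.42 for Ccnb1, -0.58 to 0.055 for Foxm1, -0.40 to 0.89 for Bub1b, -0.13 to 0.97 for Plk1, -0.093 to 1.13 for Ube2c and -0.23 to 1.17 for Birc5.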

Other observations

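A list of p53, its partners and growth arrest genes had a median difference of 0.68 over the 10 measured, 9 positive, and of 0.23 without control tumour 1, 8 positive, and 0 passed limma's threshold. Trp53, which encodes p53, had log2 levels of 7.48, 6.53 and 6.88 in Bmp4 tumours 1 to 3 and 6.44, 5.70 and 6.20 in control tumours 1 to 3, a difference of 0.85 ± 0.36 (SE) and of 1.01 ± 0.31 (SE; limma adjusted p = 0.276) without control tumour 1. Its difference grew when control tumour 1 was left out, and its groups did not overlap in either setting. Ccng1, a cyclin induced by p53, differed by 1.03 and then by 0.41, Bax, a pro-apoptotic member of the BCL2 family, by 0.66 and then by 0.40, and Btg2, an antiproliferative gene, by 1.94 and then by 0.88. Bmp4 tumours lay above all controls for Ccng1 and Bax and overlapped them for Btg2. Of the 10, 4 lay above all controls in both settings, against 12.9% of all genes with all 6 tumours and 15.9% without control tumour 1.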
